A study of Mus musculus with 7 samples.

Results

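CC chemokine receptors are the cell surface receptors through which T cells read the chemokine signals that draw them into tissues, and 9 genes of the family were followed here: Ccr1, Ccr2, Ccr3, Ccr4, Ccr6, Ccr7, Ccr8, Ccr9 and Ccr10. They were taken by symbol from a table of 24084 genes, and all 9 had a row. The table holds messenger RNA sequencing of regulatory T cells (Tregs), the T cell lineage that depends on the transcription factor Foxp3, isolated from mouse skin and from skin draining lymph nodes (SDLN). There were 3 SDLN libraries and 4 libraries from skin labelled telogen, when hair follicles rest. All mice were aged 6 weeks and carried the Foxp3-DTR strain label, named Foxp3-DTR/GFP in the series text, an allele that ties the diphtheria toxin receptor and a green fluorescent protein to Foxp3; both groups share it, and no toxin or other treatment is named. How the cells were gated and how many animals went into a library are not stated in the sources used here, so p-values measure the spread between libraries, part of which may be technical.

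Each receptor is a G protein-coupled receptor that signals mainly through the Gi class of G proteins and turns a gradient of its ligands into directed movement and integrin activation. CCR7 answers CCL19 and CCL21, which are made by lymphatic vessels and in the T cell zone, and it brings T cells into lymph nodes. CCR4, CCR8 and CCR10 are associated with T cells of the skin, CCR6 with barrier epithelia that make CCL20, CCR9 with the small intestine, and CCR1, CCR2 and CCR3 with inflamed tissue, where myeloid cells and granulocytes also carry them.

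Of the 9 receptors, 6 lie on mouse chromosome 9 in the mm10 build, 2 on chromosome 11 and 1 on chromosome 17. Ccr1, Ccr3 and Ccr2 lie within 151 kb of one another. RefSeq promoters, from 250 bases before to 50 bases after an annotated start site (build GRCm38.p6, the mm10 sequence), were matched for 7 of the 9 receptors, with 8 promoters in all; Ccr7 and Ccr10 were not matched. The letters AGATAA, the core bound by GATA factors, were found on either strand in a promoter of 4 receptors, Ccr2, Ccr3, Ccr6 and Ccr8, and 11.2% of all 32851 promoters of that length hold them. Those 4 promoters, of receptors that were higher in skin, are printed because they hold this match, with motif matches in capitals, 5′ to 3′ on the strand of the gene.
Ccr8, chr9:120091883-120092182, plus strand: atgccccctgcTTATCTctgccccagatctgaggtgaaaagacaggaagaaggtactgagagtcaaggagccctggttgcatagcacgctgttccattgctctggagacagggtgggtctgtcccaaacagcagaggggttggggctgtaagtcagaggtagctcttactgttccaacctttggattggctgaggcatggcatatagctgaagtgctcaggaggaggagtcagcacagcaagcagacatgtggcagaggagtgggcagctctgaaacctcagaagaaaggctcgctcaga
Ccr2, chr9:124101933-124102232, plus strand: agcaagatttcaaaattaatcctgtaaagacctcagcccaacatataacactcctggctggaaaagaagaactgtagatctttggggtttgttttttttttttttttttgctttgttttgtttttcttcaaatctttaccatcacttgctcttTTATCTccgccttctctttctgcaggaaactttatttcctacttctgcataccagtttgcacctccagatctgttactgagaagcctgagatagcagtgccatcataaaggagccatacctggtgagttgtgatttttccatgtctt
Ccr3, chr9:124021721-124022020, plus strand: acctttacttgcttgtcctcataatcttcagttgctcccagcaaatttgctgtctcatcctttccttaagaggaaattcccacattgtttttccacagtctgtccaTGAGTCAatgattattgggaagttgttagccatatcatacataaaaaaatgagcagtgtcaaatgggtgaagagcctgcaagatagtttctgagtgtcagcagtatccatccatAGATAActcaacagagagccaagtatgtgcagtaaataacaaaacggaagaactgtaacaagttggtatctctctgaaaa
Ccr6, chr17:8242276-8242575, plus strand: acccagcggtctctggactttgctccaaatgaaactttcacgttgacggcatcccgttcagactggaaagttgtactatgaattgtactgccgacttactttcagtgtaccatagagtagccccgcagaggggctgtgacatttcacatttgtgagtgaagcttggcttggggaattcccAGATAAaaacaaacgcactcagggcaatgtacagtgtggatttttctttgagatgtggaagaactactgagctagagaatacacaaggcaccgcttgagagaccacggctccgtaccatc
The capitals in the Ccr3 sequence also mark TGAGTCA, a match to the AP-1 motif TGANTCA, which occurred in the promoters of 2 receptors, Ccr3 and Ccr4, and in 7.81% of all promoters. AGGTCA, the core bound by ROR nuclear receptors, was found for 1 receptor, Ccr6, at its other promoter, and in 16.3% of all promoters. CTTTGAA, of the TCF/LEF factors, was found for 2 receptors, Ccr4 and Ccr6, and in 5.14% of all promoters, and the forkhead motif TGTTTAC for 0 receptors and in 3.65%. The motifs were searched on both strands and were chosen with the expression results known. The promoters of Ccr1, which was also higher in skin, and of Ccr9 held no match to any of them. Ccr6 had 2 promoters, whereas the shares over all promoters count each promoter once. A match is a description of these letters and not evidence of binding.

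The libraries held 11009609 to 14785751 gene counts, and 3 counts corresponded to 0.204 to 0.276 CPM, the unit used below for counts scaled to the library total. Genes with a count numbered 13408 to 13845 in SDLN and 9690 to 12639 in skin. Skin 1 is skin by its title and source, but its tissue tag reads lymph node. SDLN 3 was the sole library with counts of the Y-linked gene Ddx3y above 2, at 3877, and had 4 counts of Xist, against 4653 to 11758 elsewhere. The 5 Treg markers Foxp3, Il2ra, Ctla4, Ikzf2 and Tnfrsf18 were present in all 7 libraries and summed to 4660 to 5080.0 CPM in SDLN libraries and 6891 to 11069 CPM in skin libraries. Most of the higher sum was Ctla4, which averaged 651 CPM in SDLN and 3820 CPM in skin, and Ikzf2, at 1320 and 2938 CPM. Foxp3 averaged 89.0 and 169 CPM and Tnfrsf18 1085 and 1448 CPM, while Il2ra was lower on average in skin, at 1663 and 1367 CPM. The 6 general T cell markers summed to 10132 to 13104 CPM in SDLN and 3975 to 7954 CPM in skin, and for 4 of them each skin library was below each SDLN library. Skin 3 stood apart by its keratinocyte and fibroblast markers, which summed to 485 and 1997 CPM, against at most 2.65 and 8.84 CPM in any other library. The 19 markers of macrophages, monocytes and dendritic cells summed to between 23.5 and 44.3 CPM in the SDLN libraries, and to 209, 229.7, 216 and 886 CPM in skin 1 to 4. For 3 of the 19, Lyz2, Mrc1 and Fcer1g, each skin library was above each SDLN library, and Cd207 was at 0 in every library. Mast cell markers (6 genes) and eosinophil and basophil markers (4 genes) were at 0 throughout the skin libraries and reached at most 2.09 CPM in SDLN. B cell markers summed to 2.99 to 38.4 CPM in skin, below the 78.6 to 102 CPM of SDLN. Natural killer and innate lymphoid cell markers reached 23.6 CPM in skin 4 and at most 2.20 CPM elsewhere. Neutrophil markers reached at most 7.93 CPM in any library and CD8 T cell markers at most 69.0 CPM, in skin 4. Endothelial markers stood at 388 to 548 CPM in SDLN and 16.2 to 70.4 CPM in skin, most of it Pecam1, which lymphocytes also carry, and melanocyte markers at 0 to 23.9 CPM. The one gamma-delta T cell marker in the table, Sox13, was at 0 throughout.

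Skin Tregs carried more transcripts of most of these receptors and far fewer of the lymph node receptor Ccr7. By edgeR's quasi-likelihood test with Benjamini-Hochberg adjustment over all 11376 genes tested, Ccr1, Ccr2, Ccr3, Ccr6, Ccr8 and Ccr10 rose in skin, Ccr7 fell, and Ccr4 and Ccr9 did not pass an adjusted p of 0.05. In bulk samples such as these, fewer cells that carry a receptor and less of its RNA per cell cannot be told apart. The 6 that rose compare with 3.28% of all tested genes called higher, and the 1 that fell with 3.96% called lower; in either direction it was 7 of 9 against 7.24%. All 9 receptors had an unadjusted p under 0.05, as did 18.6% of all tested genes. All 9 passed the filter on low counts, but Ccr10 would not have passed on its SDLN libraries nor Ccr9 on its skin libraries, so their directions were set by that filter. The libraries of the 2 tissues did not overlap for any of the 9 receptors, with 7 higher and 2 lower in skin; over all tested genes 10.1% were without overlap and higher in skin and 16.5% without overlap and lower. The median log2 fold change was 2.69 over the 9 receptors and 0.05 over all tested genes. These counts and this median include Ccr9 and Ccr10, and for those 2 receptors the direction carries no support. Most calls were lost when 1 SDLN library was left out: the number of receptors called higher was 0, 0 and 1 without SDLN 1, 2 and 3, and the number called lower was 0 in each case. Over all genes the numbers called higher and lower were 39 and 9 without SDLN 1, 33 and 10 without SDLN 2, 61 and 15 without SDLN 3, 582 and 646 without skin 1, and 448 and 822 without skin 3. Without skin 1, the library with the contrary tissue tag, all 6 receptors were again called higher and Ccr7 lower. Without skin 4, 2 receptors were called lower, Ccr7 and Ccr9. The direction was the same for all 9 receptors under every alternative run.

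**Figure D1:**
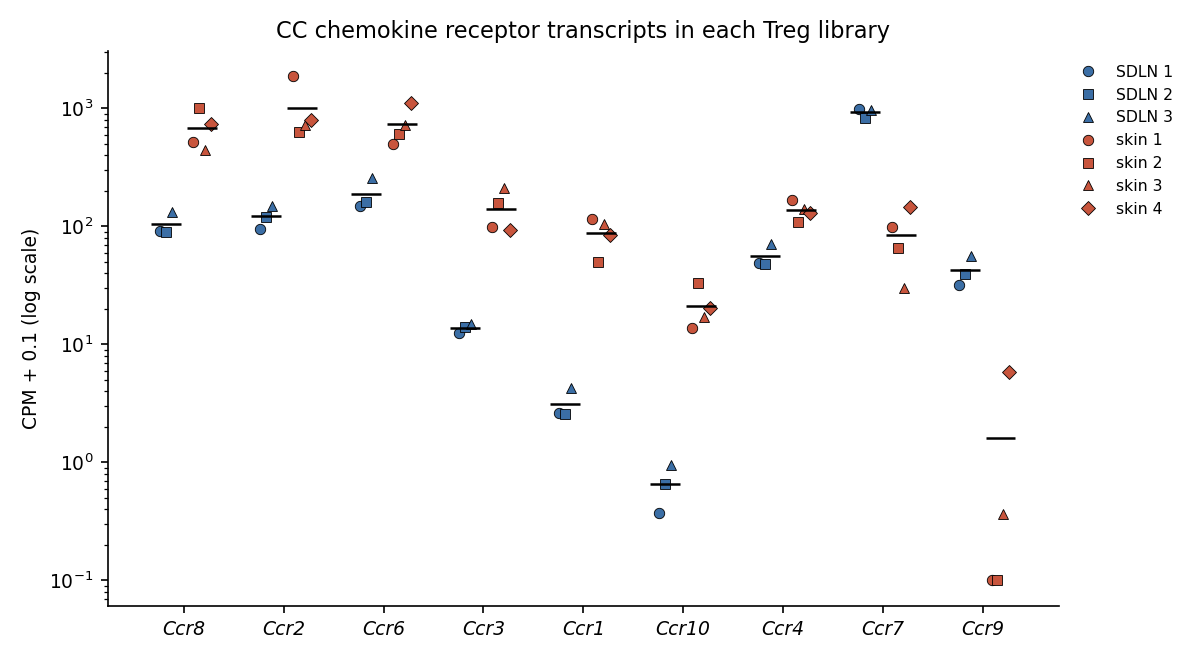
Level of each receptor in each library, as CPM plus 0.1 on a log scale (blue, 3 SDLN libraries; red, 4 skin libraries; bars, group means). For every receptor the blue and red points do not overlap, with Ccr7 and Ccr9 higher in SDLN and the other 7 higher in skin.

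Ccr7 was the receptor that fell. It lies on chromosome 11 (99144196 to 99155077, minus strand) and is protein-coding, like all 9. Its level was 983, 834 and 970.4 CPM in SDLN 1 to 3 and 97.9, 65.5, 29.7 and 145 CPM in skin 1 to 4. The lowest SDLN library was thus 5.76 times the highest skin library, and skin 3 was the lowest of all. The mean was 929 ± 82.7 CPM in SDLN (SD, n = 3) against 84.5 ± 48.9 CPM in skin (SD, n = 4), a log2 fold change of -3.46 ± 0.50 (SE) with an adjusted p of 0.0117. Ccr7 did not pass without SDLN 1, 2 or 3 (adjusted p 0.0665 to 0.0693; 4.00e-10 to 0.0693 over all alternatives). The 6 general T cell markers also summed lower in skin, at 3975 to 7954 CPM against 10132 to 13104 CPM in SDLN, and their part in the Ccr7 value was not tested.

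Ccr9, the receptor for the intestinal chemokine CCL25, was the other receptor with more transcript in SDLN (chromosome 9, 123678439 to 123784330, plus strand). It stood at 31.7, 39.6 and 56.0 CPM in SDLN 1 to 3. In skin it had 0 counts in skin 1 and skin 2, which allows up to 0.276 and 0.243 CPM, 3 counts in skin 3 and 81 counts, or 5.78 CPM, in skin 4. All skin libraries were below all SDLN libraries, and skin 4 held nearly all of the 84 skin counts. The group values were 42.4 ± 12.4 CPM (SD, n = 3) and 1.51 ± 2.85 CPM (SD, n = 4), and the difference did not pass (adjusted p = 0.243, log2 fold change -4.80 ± 1.97 SE). Without skin 4 the log2 fold change was -8.80 and the adjusted p 0.0415 (0.0113 to 0.556 over all alternatives), and Ccr9 was also called with DESeq2 (adjusted p = 0.0453) and limma-voom (adjusted p = 0.0113). Ccr9 passed the low-count filter through SDLN libraries alone, so the direction of these calls carries no support. The annotated gene shares exon sequence with Slc6a20a and AC165425.1 on the opposite strand and with the long noncoding RNA Gm17200 on its own strand. The strand setting of the counting is not given, so the Ccr9 counts are uncertain to that extent; Slc6a20a had 2 counts over SDLN and 14 over skin. Skin 4 was also the library with the highest sums of myeloid markers (886 CPM), CD8 T cell markers (69.0 CPM) and natural killer and innate lymphoid cell markers (23.6 CPM). The part of these cells in the Ccr9 value was not tested.

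Among the receptors associated with skin T cells, Ccr8 had the highest level for its length in skin Tregs (chromosome 9, 120092114 to 120094906). CCR8 binds CCL1 and, in mice, CCL8. Its transcript stood at 91.3, 90.3 and 132 CPM in SDLN 1 to 3 and at 521, 1002, 439.6 and 739 CPM in skin 1 to 4. Skin 2 and skin 4 were the high libraries, and the lowest skin library was 3.32 times the highest SDLN library. The mean rose 6.46-fold, from 105 ± 24.0 CPM (SD, n = 3) to 676 ± 252 CPM (SD, n = 4) (adjusted p = 0.0110, log2 fold change 2.69 ± 0.37 SE). Ccr8 did not pass without SDLN 1, 2 or 3 (adjusted p 0.0548 to 0.0938; 1.77e-10 to 0.0938 over all alternatives).

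Ccr10, the receptor for the keratinocyte chemokine CCL27 and for CCL28, was scarce in both tissues (chromosome 11, 101172997 to 101175443). It had 4, 8 and 11 counts in SDLN 1 to 3 and 148, 408, 194 and 282 counts in skin 1 to 4. As CPM these were 0.271, 0.552 and 0.8495 in SDLN and 13.6, 33.0, 17.1 and 20.1 in skin, with skin 2 the highest, as for Ccr8. The mean was 37.6 times higher in skin (0.558 ± 0.289 CPM, SD, n = 3, against 21.0 ± 8.46 CPM, SD, n = 4; adjusted p = 0.0382, log2 fold change 5.21 ± 1.17 SE), and the fold rests on 23 SDLN counts in all. Ccr10 did not pass without SDLN 1, 2 or 3 (adjusted p 0.166 to 0.240), without the low-count filter (0.119) or when the filter was a mean of 5 CPM or more (0.0626), and its adjusted p ranged from 4.31e-09 to 0.358 over all alternatives. Ccr10 lies within the span of Cntnap1 on the opposite strand with no shared exon. Cntnap1 averaged 2.06 ± 0.893 CPM in SDLN against 28.6 ± 14.5 CPM in skin (SD, n = 3 and n = 4), without overlap, and did not pass (adjusted p = 0.0525); its part in the Ccr10 counts was not tested.

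Ccr4, the receptor for CCL17 and CCL22 (chromosome 9, 114490316 to 114504916), had the smallest difference of the 9. It stood at 48.6, 47.6 and 70.3 CPM in SDLN 1 to 3 and 167, 109, 141 and 129.8 CPM in skin 1 to 4. Every skin library was above every SDLN library, the closest pair by 1.55 times, and skin varied less in Ccr4 than in any other of these receptors (coefficient of variation 17.8%, against 32.6% to 189% for the others). The group values were 55.5 ± 12.8 CPM (SD, n = 3) and 137 ± 24.4 CPM (SD, n = 4), a ratio of 2.46, and the difference did not pass (log2 fold change 1.30, SE 0.33, unadjusted p = 0.00415, adjusted p = 0.0542). It passed without skin 2 (adjusted p = 0.0403), with DESeq2 (0.00165) and with limma-voom (0.0413), and its adjusted p reached 0.351 with the replicate block.

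Ccr6, the receptor for the epithelial chemokine CCL20, rose (chromosome 17, 8236043 to 8257141). It stood at 150.1, 161 and 255 CPM in SDLN 1 to 3 and 500.2, 603, 727 and 1107 CPM in skin 1 to 4, so skin 4 was the highest library and SDLN 3 the highest of its group. The closest libraries of the 2 tissues were 1.96 times apart. The mean was 3.90 times higher in skin (188 ± 57.7 CPM, SD, n = 3, against 734 ± 265 CPM, SD, n = 4; adjusted p = 0.0304, log2 fold change 1.96 ± 0.36 SE). Ccr6 did not pass without SDLN 1, 2 or 3 (adjusted p 0.0860 to 0.176; 5.91e-06 to 0.176 over all alternatives).

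Ccr2, Ccr1 and Ccr3, the receptors of inflammatory chemokines, all rose. Ccr2, the receptor for CCL2, CCL7 and CCL12 (chromosome 9, 124101950 to 124113557), was at 94.2, 121 and 149 CPM in SDLN 1 to 3 and at 1879.9, 631, 719 and 803 CPM in skin 1 to 4. Skin 1 stood far above the other skin libraries, which lay close together. The mean was 8.31 times higher in skin (121 ± 27.3 CPM, SD, n = 3, against 1008 ± 585 CPM, SD, n = 4; adjusted p = 0.0145, log2 fold change 3.06 ± 0.47 SE), and without skin 1 the log2 fold change was 2.57 (adjusted p = 0.00652). Ccr2 did not pass without SDLN 1, 2 or 3 (adjusted p 0.0842 to 0.109; 1.56e-09 to 0.109 over all alternatives).

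Ccr1, a receptor for CCL3 and CCL5 (chromosome 9, 123962124 to 123968692), was near the bottom of the range in SDLN, at 2.51, 2.49 and 4.17 CPM, and stood at 115, 49.8, 105 and 84.2 CPM in skin 1 to 4. Each skin library was at least 11.9 times each SDLN library. The mean was 29.0 times higher in skin (3.06 ± 0.966 CPM, SD, n = 3, against 88.5 ± 28.9 CPM, SD, n = 4; adjusted p = 0.00674, log2 fold change 4.85 ± 0.59 SE). Ccr1 passed without SDLN 3 (adjusted p 0.0401) and missed the threshold when SDLN 1 or SDLN 2 was left out (0.0668 to 0.0693; 6.40e-20 to 0.0764 over all alternatives).

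Ccr3, the eotaxin receptor best known from eosinophils (chromosome 9, 124021972 to 124031689), was at 12.3, 13.9 and 14.8 CPM in SDLN 1 to 3 and at 98.5, 158, 212 and 93.8 CPM in skin 1 to 4. SDLN libraries lay close together, and skin 3 was the highest. The mean was 10.3 times higher in skin (13.7 ± 1.22 CPM, SD, n = 3, against 141 ± 56.0 CPM, SD, n = 4; adjusted p = 0.00998, log2 fold change 3.36 ± 0.45 SE). Ccr3 did not pass without SDLN 1, 2 or 3 (adjusted p 0.0691 to 0.0902; 1.18e-12 to 0.0902 over all alternatives). The eosinophil and basophil markers Siglecf, Epx, Prg2 and Mcpt8 were at 0 in all 4 skin libraries. The part of eosinophils or other cells in the Ccr3 value was not tested.

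Myeloid cells also express Ccr1 and Ccr2, so the myeloid markers are set beside them. The summed markers were highest in skin 4, at 886 CPM, where Ccr2 was at 803 and Ccr1 at 84.2 CPM, and lowest among skin libraries in skin 1, at 209 CPM, where both receptors were highest. Csf1r, the receptor of macrophage growth factors, was at 80.7, 0, 27.4 and 0.785 CPM in skin 1 to 4, and the macrophage marker Cd68 at 23.3, 0, 12.2 and 18.4 CPM, so these 2 markers were highest in skin 1 as well. Itgax was at 0 in skin 1 to 3 and Cd14 at most at 0.0809 CPM in skin 1 and 2. In skin 2, where Ccr2 was at 631 and Ccr1 at 49.8 CPM, Csf1r, Cd68 and Itgax were at 0, but Lyz2 was at 175, C1qa at 15.3, Fcer1g at 15.05, Fcgr1 at 14.0 and Mrc1 at 4.29 CPM, each above every SDLN library. Within skin 3, where keratinocyte and fibroblast markers were raised, Ccr2 was at 719 and Ccr1 at 105 CPM, inside the range of the other skin libraries. The part of other cells in these values was not tested.

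**Figure D2:**
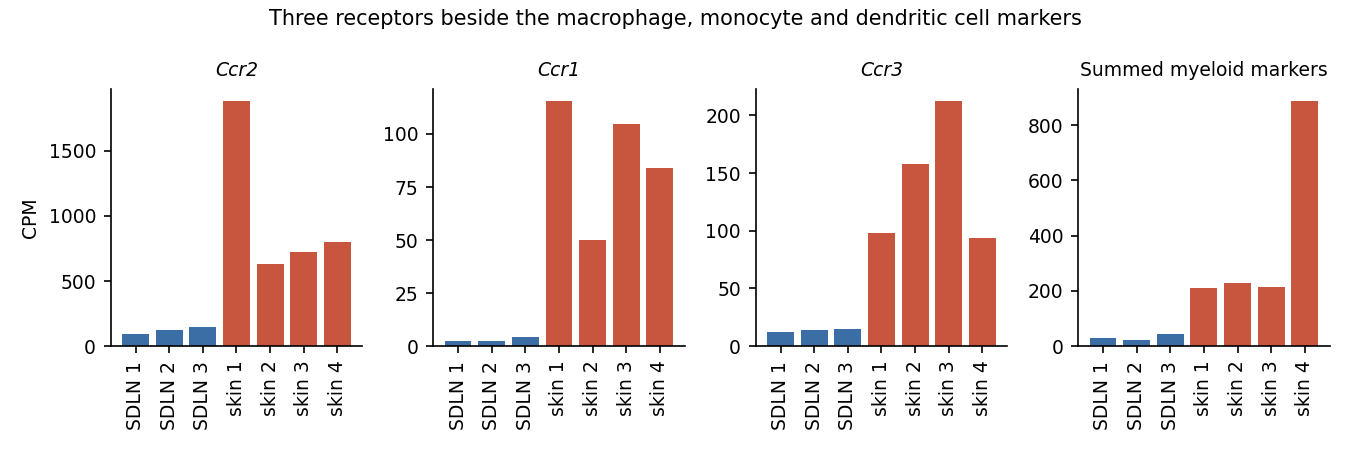
CPM of Ccr2, Ccr1 and Ccr3 and the sum of the 19 macrophage, monocyte and dendritic cell markers in each library (blue, SDLN; red, skin; 1 bar per library). The marker sum was highest in skin 4, at 886 CPM, while Ccr2 and Ccr1 were highest in skin 1 and Ccr3 in skin 3.

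**Figure D3:**
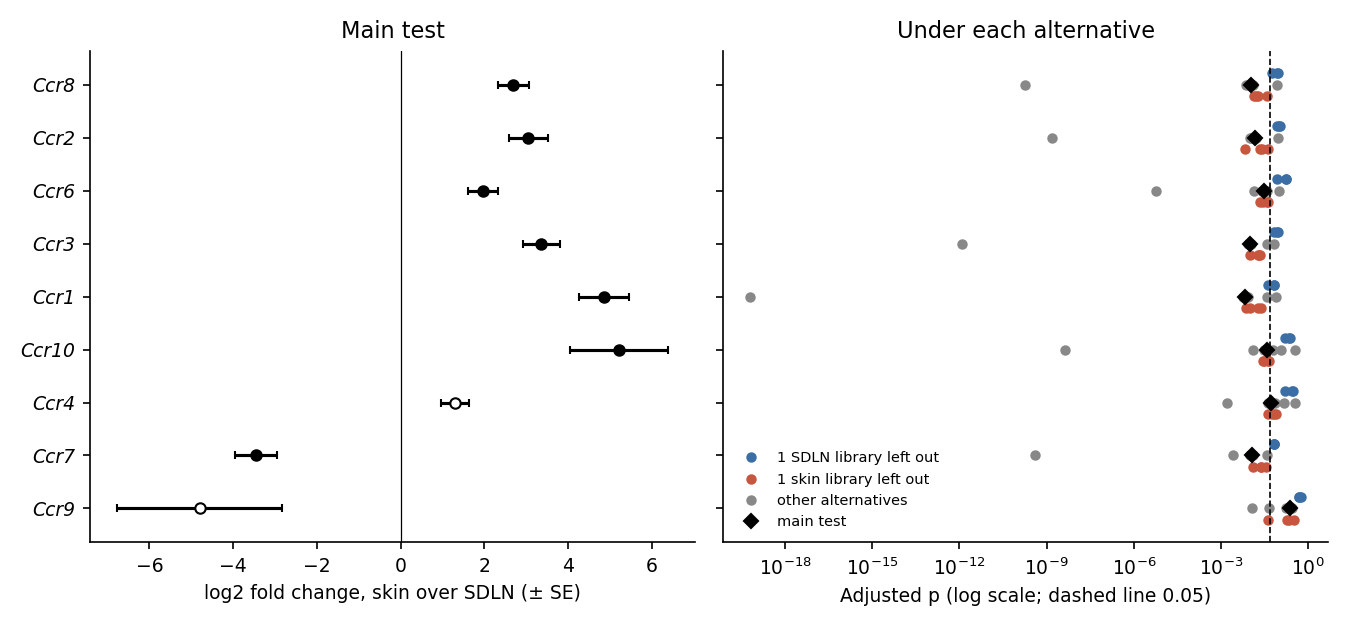
Left, log2 fold change of each receptor, skin over SDLN, with its SE (filled circles, adjusted p under 0.05; open circles, not passed). Right, the adjusted p of each receptor on a log scale in the main test (diamonds) and under each alternative (circles); with 1 SDLN library left out nearly all points lie at or right of the 0.05 line, and the grey points far to the left are those of DESeq2.

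To compare the receptors with one another, CPM were divided by the length of each gene's annotated exons, which gives CPM per kb. In SDLN the order was led by Ccr7, at 469.7 ± 41.8 CPM per kb (SD, n = 3), followed by Ccr8 at 89.1 ± 20.4 and Ccr6 at 81.2 ± 24.9. Ccr8 and Ccr6 overlapped between libraries there. Ccr4 and Ccr2 came next, both at 17.9 CPM per kb (SD 4.14 and 4.03), and were not distinguishable. Ccr3 at 4.17 ± 0.372 and Ccr9 at 4.13 ± 1.21 overlapped as well, while Ccr1 at 1.08 ± 0.341 and Ccr10 at 0.323 ± 0.168 were lowest. In skin the order was led by Ccr8 at 575 ± 214 CPM per kb (SD, n = 4), then Ccr6 at 316 ± 114 and Ccr2 at 149 ± 86.6, each overlapping its neighbour in this order. Ccr4 at 44.2 ± 7.87, Ccr3 at 43.0 ± 17.1, Ccr7 at 42.7 ± 24.7 and Ccr1 at 31.2 ± 10.2 formed a middle group whose ranges overlapped. Ccr10 was at 12.1 ± 4.90, and Ccr9 was last at 0.147 ± 0.278 CPM per kb.

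As a share of the summed per-length level of the 9 receptors, Ccr7 made up 73.4%, 69.1% and 63.7% in SDLN 1 to 3, whereas in skin 1 to 4 it made up 4.42%, 2.44%, 1.55% and 5.19%. Ccr8 made up 11.5%, 12.6% and 14.6% in SDLN and 39.6%, 62.7%, 38.7% and 44.6% in skin. Ccr6 made up 11.7 ± 2.38% in SDLN (SD, n = 3) and 26.2 ± 8.07% in skin (SD, n = 4). Ccr2 held 2.62 ± 0.484% in SDLN and 12.8 ± 8.22% in skin, where skin 1, at 24.8%, was again apart from 6.86% to 11.01% in the others. Skin 2 was thus dominated by Ccr8, whereas skin 1 had a larger part of Ccr2 and skin 3 and skin 4 a larger part of Ccr6, at 32.4% and 33.8%. Per length, Ccr7 exceeded Ccr8 by 4.36 to 6.40 times in SDLN, and Ccr8 exceeded Ccr7 by 8.60 to 25.7 times in skin, with skin 1 and skin 4 at the low end (8.96 and 8.60) and skin 2 and skin 3 at the high end (25.7 and 24.9). The summed level of the 9 receptors was 686 ± 80.1 CPM per kb (SD, n = 3) in SDLN and 1214 ± 208 CPM per kb (SD, n = 4) in skin. The order depends on the lengths used: with the principal transcript in place of all exons, an alternative chosen after seeing the data, 3 pairs changed places in SDLN. Ccr6, at 107 CPM per kb, then stood above Ccr8 at 89.1, Ccr2 at 21.2 above Ccr4 at 19.8, and Ccr9 at 8.16 above Ccr3 at 4.17. In skin the order of the group means was unchanged, but the order of Ccr8 and Ccr6 changed in some libraries. With principal transcripts Ccr6 exceeded Ccr8 in skin 3 (38.0% against 34.3% of the sum) and, by little, in skin 4 (39.64% against 39.56%).

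**Figure D4:**
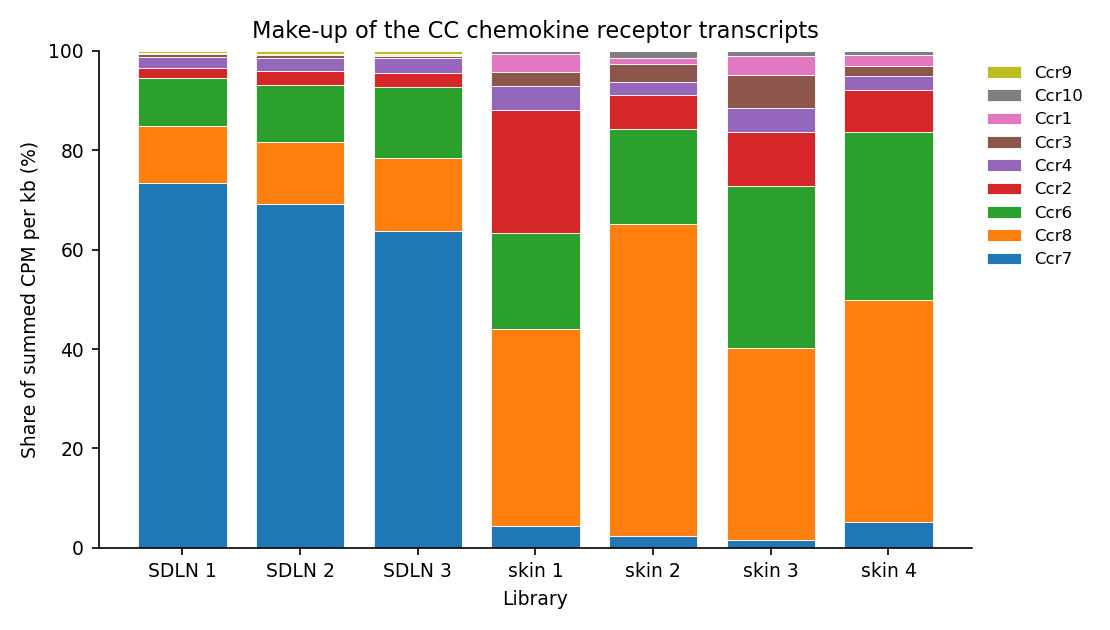
Each receptor as a percentage of the summed CPM per kb of the 9 receptors, 1 stacked bar per library. Ccr7 fills 63.7% to 73.4% of the SDLN bars and 1.55% to 5.19% of the skin bars, where Ccr8 and Ccr6 make up most.

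Skin libraries did not share one order. Skin 1 was the highest of the 4 skin libraries for Ccr1, Ccr2 and Ccr4 and the lowest for Ccr6 and Ccr10. Skin 2 was highest for Ccr8 and Ccr10 and lowest for Ccr1, Ccr2 and Ccr4. Skin 3 was highest for Ccr3 and lowest for Ccr7 and Ccr8, and skin 4 was highest for Ccr6, Ccr7 and Ccr9 and lowest for Ccr3. In SDLN, by contrast, SDLN 3, the library with Ddx3y counts, was the highest of the 3 for every receptor other than Ccr7. The median coefficient of variation over the 9 receptors was 23.1% in SDLN and 39.8% in skin, against 18.7% and 74.99% over all tested genes.

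For the 4 receptors with the highest mean CPM, the genes with the most similar profile were sought among 6810 genes averaging 20 CPM or more. Likeness was the root-mean-square difference of log2 CPM over the 7 libraries after centring each gene. The nearest genes were picked as the smallest of these differences, so lying below the median of the candidates follows from that choice. A similar difference between the tissues also makes genes score as alike. For Ccr8 the nearest were Slc3a2, the heavy chain of CD98 amino acid transporters, at 0.15 log2 units, Ctla4, the inhibitory receptor of Tregs, at 0.20, and Trp53i11 at 0.21, against a median of 1.65 over all candidates. Slc3a2 was at 31.5, 33.4 and 47.0 CPM in SDLN and at 142, 363, 143 and 227 CPM in skin 1 to 4, with skin 2 and skin 4 high, as for Ccr8. For Ccr2 the nearest were Slc25a24, a mitochondrial carrier, at 0.31, Gxylt1, a xylosyltransferase, at 0.31 and Ccrl2, an atypical chemoattractant receptor, at 0.32 (median 1.79). For Ccr6 they were Rab11a, a GTPase of recycling endosomes, at 0.26, Aldoart1 at 0.28 and Hopx, an atypical homeodomain protein, at 0.28 (median 1.36). Aldoart1 is a near copy of an aldolase gene, so its counts are uncertain. For Ccr7 the nearest were further away: Gimap6, a lymphocyte GTPase, at 0.40, Ms4a4b, a T cell membrane protein, at 0.48 and Acp5, an acid phosphatase, at 0.58 (median 2.13).

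Near the receptors on the chromosome, 41 other protein-coding genes within 100 kb had a row and are described here, of which 28 were tested and 1 was called in edgeR, a share below the 7.24% called over all tested genes. That was Cxcr6, a CXC receptor of tissue T cells that lies 22.1 kb from Ccr9; its mean was 72.2 ± 41.7 CPM in SDLN against 909 ± 374 CPM in skin (SD, n = 3 and n = 4; adjusted p = 0.0118, log2 fold change 3.65 ± 0.53 SE). Its neighbour Ccr9 averaged lower in skin but did not pass, and its direction was set by the low-count filter. Xcr1, the lymphotactin receptor known from cross-presenting dendritic cells and 68.0 kb from Ccr9, was at 0.882, 1.59 and 1.31 CPM in SDLN and 5.98, 24.3, 26.3 and 60.1 CPM in skin 1 to 4 and did not pass (adjusted p = 0.0535). Ccr1l1, 8.55 kb from Ccr1, had no count in any library, whereas Ccr1 and Ccr3 on its flanks rose. These genes were picked out after their values were seen, Ccr1l1 and Xcr1 included.

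Many of the chemokines these receptors bind were scarce in these libraries, but not all of them in skin. Ccl8 reached 85.7 CPM in skin 3 and Ccl3 69.6 CPM in skin 4. Of 24 CC chemokine ligands in the table, 10 were under 1 CPM in every library and 5 passed the low-count filter, Ccl4, Ccl5, Ccl6, Ccl8 and Ccl25. Of these 5, 0 were called higher and 0 lower in edgeR, 2 were higher and 0 lower at an unadjusted p under 0.05 (over all tested genes, 1142 were higher and 969, or 8.52%, lower), and 1 was called higher with DESeq2 and 0 with limma-voom. Ccl6 had no count in any SDLN library and passed the filter through skin libraries alone, so its direction was set by the filter and no median over the 5 ligands is given. Ccl5, a ligand of Ccr1 and Ccr3, was the most abundant, at 25.1, 21.4 and 34.4 CPM in SDLN and 109.6, 70.1, 23.8 and 142 CPM in skin 1 to 4 (adjusted p = 0.203); skin 3 lay within the SDLN range. Without skin 3, 1 ligand was called higher, and without skin 2, 1 was called lower. Ccl25 had 84, 68 and 62 counts in SDLN 1 to 3, 24 in skin 2 and 0 in the other skin libraries. It passed the filter through SDLN libraries alone, so a lower direction of Ccl25 was set by the filter. Ccl1, a ligand of Ccr8, had 12, 11 and 7 counts in SDLN 1 to 3 and no count in skin. Ccl22, a ligand of Ccr4, had 27, 8 and 15 counts in SDLN and none in skin, and Ccl20, the ligand of Ccr6, had 1, 3 and 19 counts in SDLN and none in skin.

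Among 7 atypical chemokine receptors and tyrosine sulfation enzymes in the table, 4 were tested, 1 was called higher and 0 lower in edgeR (3.28% and 3.96% of all tested genes). At an unadjusted p under 0.05 it was also 1 higher and 0 lower (1142 and 969 of the 11376 tested genes), and 0 were lower with DESeq2 or limma-voom. Their median log2 fold change was 2.27, against 0.05 over all genes tested, but it rests on 4 genes. Of these, Ackr4 had 332 counts in skin 3, 0 in the other skin libraries and 20, 9 and 20 in SDLN 1 to 3 (adjusted p = 0.732). Tpst1 was lower on average in skin (log2 fold change -1.18, adjusted p = 0.842). It had 15, 26 and 18 counts in SDLN 1 to 3, 0 in skin 1 to 3 and 34 in skin 4. Tpst1 passed the low-count filter through SDLN libraries alone, so its direction was set by the filter, and the median includes it. The 1 called was Ccrl2, which binds chemerin, at 30.3, 23.9 and 31.0 CPM in SDLN and 287, 119, 119 and 164 CPM in skin 1 to 4 (adjusted p = 0.0201, log2 fold change 2.60 ± 0.43 SE). The number called higher was 0 without SDLN 1, 2 or 3 and 2 without skin 1, and 1 was called lower without skin 4. In the fit without skin 4, Tpst1 had no skin count left. The sulfotransferase Tpst2, which modifies the outer end of chemokine receptors, had 316, 232 and 259 counts in SDLN 1 to 3 and 76, 1637, 741 and 1257 counts in skin 1 to 4, where skin 1 was below SDLN and the other skin libraries above it (adjusted p = 0.291).

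Of 40 genes that carry signals from chemokine receptors, 37 were tested: 5 were called higher (against 3.28% of all tested genes), 1 lower (against 3.96%) and 31 did not pass, with a median log2 fold change of 0.47 against 0.05 over all genes tested. Rgs2, which shuts off G protein signalling, rose 20.6-fold (30.0 ± 6.67 against 617 ± 143 CPM, SD, n = 3 and n = 4; adjusted p = 0.00127). Gna13, a G protein alpha subunit, rose 3.86-fold (156 ± 20.8 against 601 ± 117 CPM; adjusted p = 0.00998), and Prex1, a Rac exchange factor that answers G protein beta-gamma subunits, rose 4.69-fold (62.1 ± 8.25 against 291 ± 91.2 CPM; adjusted p = 0.0117). Named after their values were seen, the remaining pair that rose comprised the gamma subunit Gng2 (adjusted p = 0.0380, log2 fold change 1.79) and the integrin-activating GTPase Rap1b (adjusted p = 0.0434, log2 fold change 1.29). Rgs10, another brake on G protein signalling, fell (289 ± 54.0 against 90.5 ± 27.5 CPM; adjusted p = 0.0349, log2 fold change -1.67). The main alpha subunit of chemokine receptors, Gnai2, was at 130.4, 121 and 145 CPM in SDLN and 159, 1002, 266 and 613 CPM in skin 1 to 4 and did not pass (log2 fold change 1.95, adjusted p = 0.119). In this list the number called higher was 1 without SDLN 1, SDLN 2 or SDLN 3, 9 without skin 1 and 3 without skin 4. The number called lower was 0 without SDLN 1, SDLN 2 or SDLN 3 and 4 without skin 1. Grk5, included in the median, had 41, 55 and 41 counts in SDLN 1 to 3, 18 in skin 1 and 0 in the other skin libraries. It passed the low-count filter through SDLN libraries alone, so its direction was set by the filter.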

How the data were processed

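Messenger RNA was sequenced from Tregs of 3 SDLN and 4 skin libraries, prepared with the SMARTer Ultra Low Input kit per the labels' protocols. The authors deposited unnormalised read counts for each gene symbol, made with HTSeq 0.6.1 after TopHat2 2.0.12, Bowtie2 2.1.0.0 and SAMtools 0.1.19.0 on mm10, per the submitters' processing notes; the annotation and strand setting are not stated in the sources used here. Counting lines that name no gene (5 lines; 61.2% to 70.4% of all counts for multiple alignments and 10.0% to 17.1% outside genes) were left out. Genes were kept by filterByExpr (minimum count 10) and scaled by TMM in edgeR 4.0.16 (R 4.3.3), and skin was compared with SDLN by the robust quasi-likelihood test (two-sided; Benjamini-Hochberg adjustment over 11376 genes; threshold 0.05). The SE is the log2 fold change over the root of the F statistic. CPM use TMM-scaled totals; a floor of 3 counts covers counting error only. Positions and exon lengths are from GENCODE M21 (mm10), and promoters from RefSeq. The members, lists, motifs and the rule for named genes (all members, nearest profiles, up to 3 called genes a list and direction) were chosen with earlier results of these data known. Alternatives used limma 3.58.1 and DESeq2 1.42.0. 1 neighbouring gene is not reported here.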

Additional observations from a re-analysis of the deposited data

Results flagged for a closer look

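Among the 9 receptors, 2 had 1 skin library so far from the other 3 that its gap to the nearest of them passed Dixon's 95% critical value for 4 samples, as a part of the group's range; chance gives about 1 such group in 20. Ccr2 was at 1879.9 CPM in skin 1, with a gap of 0.862 of the range, and its log2 fold change was 2.57 without that library. Ccr9 was at 5.78 CPM in skin 4, with a gap of 0.954 of the range, and passed the test without that library (log2 fold change -8.80, adjusted p = 0.0415). The other skin libraries had 0, 0 and 3 counts of Ccr9. With those at the floor the gap is bound to be large, so the chance rate cannot be applied to Ccr9. Ccr9 passed the low-count filter through SDLN libraries alone, so its direction carries no support. Skin 1 is the library whose tissue tag names the lymph node, and Ccr2 was lower in SDLN (94.2 to 149 CPM) than in any skin library. The tissue of origin of skin 1 was not tested.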

How the results depend on the processing

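Over 135 fold changes of single receptors under alternatives, 0 reversed, 101 kept their side of the threshold, 28 lost it and 6 gained it. With each library left out in turn, the receptors called higher numbered 0 to 7 and lower 0 to 2, all genes 33 to 582 higher and 9 to 822 lower, ligands 0 to 1 in each direction, atypical receptors and sulfation enzymes 0 to 2 higher and 0 to 1 lower, and signalling genes 1 to 9 higher and 0 to 4 lower; these fits hold 1 library fewer, and the cause was not tested further. With the replicate number as a block, receptors called higher numbered 0, all genes 44 higher and 12 lower, atypical receptors 0 higher, and signalling genes 1 higher and 0 lower, while Ccr7 passed (adjusted p = 0.0380). Equal replicate numbers share only a number: deviations of same-numbered libraries correlated across genes at 0.067, -0.0018 and -0.040, and not every library correlated best with its own number. At an adjusted p under 0.01, receptors numbered 2 higher and 0 lower, all genes 72 and 16, atypical receptors 0 higher, and signalling genes 2 and 0. With DESeq2, 2 receptors and 2 signalling genes were lower, and 9 signalling genes, 1 ligand and 923 genes in all were higher. With limma-voom, 2 receptors, 2 signalling genes and 729 genes in all were lower. Without the low-count filter 188 genes were higher and 70 lower, with 3 signalling genes higher; with a mean of at least 5 CPM 100 genes were lower; with no scaling 2 signalling genes were lower. Depth limits Ccr10 in SDLN (23 counts) and Ccr9 in skin (84 counts). The shares per length of Ccr7 in SDLN and of Ccr8, Ccr6 and Ccr2 in skin moved by less than 1 SD with the principal transcript lengths. The share of Ccr6 in SDLN moved by more than 1 SD, from 11.7% (SD 2.38) to 14.7%.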

Other observations

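Several CC chemokines that did not pass the low-count filter had nearly all their counts in 1 skin library. Ccl3 had 976 counts in skin 4, 0 in the other skin libraries and at most 3 in any SDLN library. Ccl12 had 345 counts in skin 4 and 0 in the other skin libraries, with 14 in SDLN 3, and Ccl9 had 209 counts in skin 4 and none elsewhere. Ccl2 had 164 counts in skin 4 and at most 9 in any other library. Ccl17, a ligand of Ccr4, had 131 counts in skin 1 and none in the other skin libraries, with at most 3 in SDLN. Ccl8, which did pass the filter, had 972 counts in skin 3, 936 in skin 4 and 0 in skin 1 and skin 2.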
